A study of Mus musculus with 108 samples.

Results

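The genes described here encode the proteins of the cytosolic ribosome. They were taken by symbol, as every row named Rpl or Rps with a number (and an optional a or x), together with Rplp0, Rplp1, Rplp2, Rpsa and the paralogues Rpl22l1, Rpl39l, Rpl36al and Rps27l, and without pseudogenes. This gave 81 of the 26218 gene rows of the table, 49 for the large and 32 for the small subunit. Of these, 77 encode canonical subunits and 4 are paralogues. Fau, which encodes a small subunit protein as a fusion with a ubiquitin-like protein, fell outside the rule by its name.

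The cells were cultured mouse male germline cells of 2 kinds. GSC-like cells (GSCLCs) are, per the title of the study, derived in vitro from pluripotent stem cells, and germline stem cells (GSCs) are the cultured cells they are set against. The lines were GSCLC1 (30 cells) and GSCLC4 (24 cells), set against GSC1 (30 cells) and GSC2 (24 cells). Per the labels, all 4 lines share the background 129/SvJcl x C57BL/6, an AcrAct_EGFP reporter and a StemPro-34 medium with FBS, GDNF, bFGF, LIF and EGF. GSCLC4 came from reconstituted testes held at 34 °C for 3 weeks, and GSC2 from separate testes of postnatal day 7, while the labels give no such detail for GSCLC1 and GSC1. Each library was 1 cell and each line was taken as 1 culture, so tests compared lines, 2 per type, and never cells.

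A ribosome holds 1 copy of nearly every one of these proteins, so their genes are transcribed at high and similar levels in growing cells. Their mRNAs begin with a terminal oligopyrimidine (TOP) tract, through which the kinase mTOR controls their translation together. A few proteins have a second gene. Rpl39l is a paralogue of Rpl39, a protein that lines the exit tunnel of the large subunit, and is known from male germ cells. Rps27l is a paralogue of Rps27 that p53 induces, and Rpl22l1 and Rpl36al are paralogues of Rpl22 and Rpl36a. Because SC3-seq reads only the 3′ ends of mRNAs, levels are compared between genes in RPM, reads scaled to the total of their library, with no division by gene length.

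The coding sequences of the pairs Rpl39l and Rpl39 and Rps27l and Rps27 are shown to compare these paralogues in sequence. The reads come from the 3′ ends of mRNAs, so coding sequences alone do not measure how far reads can be told apart. The sequences are GENCODE M21 transcripts on GRCm38, from start to stop codon, 5′ to 3′, with capitals at the positions where the members of a pair differ. The coding sequence of Rpl39l spans chromosome 16 (10174310 to 10174465, + strand) and that of Rpl39 chromosome X (37082701 to 37085127, − strand). That of Rps27l spans chromosome 9 (66946175 to 66949357, + strand) and that of Rps27 chromosome 3 (90212725 to 90213615, − strand).
Rpl39l: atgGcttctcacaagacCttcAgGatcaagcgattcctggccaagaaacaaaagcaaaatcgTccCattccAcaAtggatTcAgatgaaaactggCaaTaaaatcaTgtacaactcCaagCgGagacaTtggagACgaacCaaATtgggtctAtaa
Rpl39: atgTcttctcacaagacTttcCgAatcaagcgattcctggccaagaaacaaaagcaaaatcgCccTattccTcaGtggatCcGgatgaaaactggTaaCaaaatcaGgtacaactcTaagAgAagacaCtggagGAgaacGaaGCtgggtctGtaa
Rps27l: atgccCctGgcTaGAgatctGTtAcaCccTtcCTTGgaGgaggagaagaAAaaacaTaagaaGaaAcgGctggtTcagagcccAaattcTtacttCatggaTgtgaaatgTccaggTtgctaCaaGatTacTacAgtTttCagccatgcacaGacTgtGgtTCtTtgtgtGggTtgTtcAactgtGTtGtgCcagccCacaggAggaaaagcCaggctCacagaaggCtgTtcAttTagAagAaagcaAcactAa
Rps27: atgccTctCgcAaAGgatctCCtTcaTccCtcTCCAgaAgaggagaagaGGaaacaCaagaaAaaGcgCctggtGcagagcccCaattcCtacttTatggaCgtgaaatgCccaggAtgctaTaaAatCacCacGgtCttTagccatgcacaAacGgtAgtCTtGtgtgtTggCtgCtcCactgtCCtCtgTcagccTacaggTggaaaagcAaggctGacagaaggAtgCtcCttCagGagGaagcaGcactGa
The Rpl39 pair differed at 23 bases and was 85.3% identical, and the Rps27 pair differed at 61 bases and was 76.1% identical. Rpl36al (chromosome 12) and Rpl36a (chromosome X) were 87.9% identical, and Rpl22l1 (chromosome 3) and Rpl22 (chromosome 4) 66.9%. The longest run shared exactly by the whole transcripts of a pair was 38 bases for Rpl39, 26 for Rpl22, 24 for Rpl36a and 11 for Rps27. X-linked members were Rps4x, Rpl10, Rpl36a and Rpl39, and chromosome 7 held the most members, 14.

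Depth and identity of the cells were as follows. Estimated reads per cell had line medians of 3.19 M and 3.26 M in GSCLC1 and GSCLC4 and 3.71 M and 4.30 M in GSC1 and GSC2, over a range of 2.00 M to 6.04 M. The 6 germ cell markers Dazl, Ddx4, Zbtb16, Gfra1, Sall4 and Etv5 summed to 5266 and 5143 RPM in the GSCLC lines and 4651 and 5068 RPM in the GSC lines. A single GSC1 cell differed from the rest. It had 5748 detected genes, against a median of 8864.5 over all cells, and 54652 RPM of 12 fibroblast and feeder cell markers, against a maximum of 839 to 972 RPM in the other 3 lines. Its germ cell markers summed to 819 RPM. It is called the cell that stood apart. By line the 12 markers summed to 246 and 359 RPM in the GSCLC lines and 2402 and 422 RPM in the GSC lines, with Lum at 0 in all. Without that cell the GSC1 sum was 599.8 RPM, still the highest of the lines, and that of the germ cell markers 4783 RPM. The median of the 12-marker sum over all GSC1 cells was 311 RPM. It lay under the 599.8 RPM mean of the other GSC1 cells, some of which thus also had raised sums. Markers of Sertoli cells and of pluripotent cells summed to at most 44.1 and 71.98 RPM in any line. The part of these cell types in the comparisons between the types was not tested.

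All 81 genes were detected in every cell, and 62 of the 100 highest genes of the table were among them. The median gene had 2055 RPM, taken over the 4 line means, against 35.6 RPM for the tested genes of the table, and 63 genes had at least 1000 RPM. The highest was 35.2 times the lowest, and the 10 highest held 25.8% of the RPM of all 81. The stalk proteins, which draw elongation factors to the large subunit, stood near the top. Rplp1 (chromosome 9, 61913283 to 61914510) was the highest gene of the set, with 7533 and 5263 RPM in GSCLC1 and GSCLC4 and 7944 and 7202 RPM in GSC1 and GSC2. Single cells ranged from 4789 to 12063 RPM around a median of 7554 in GSCLC1 and from 3167 to 7927 around 5384 in GSCLC4. In GSC1 they ranged from 3950 to 14621 around 7511, and in GSC2 from 4591 to 10166 around 7188. GSCLC4 was thus the low line for Rplp1, and the cells of all lines overlapped. Rplp0 averaged 4745 and 3772 RPM in GSCLC1 and GSCLC4 and 4464 and 4617 RPM in GSC1 and GSC2. Rplp2, the partner of Rplp1 in the stalk, averaged 4402 and 4092 RPM in the GSCLC lines and 4658 and 4275 RPM in the GSC lines.

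**Figure D1:**
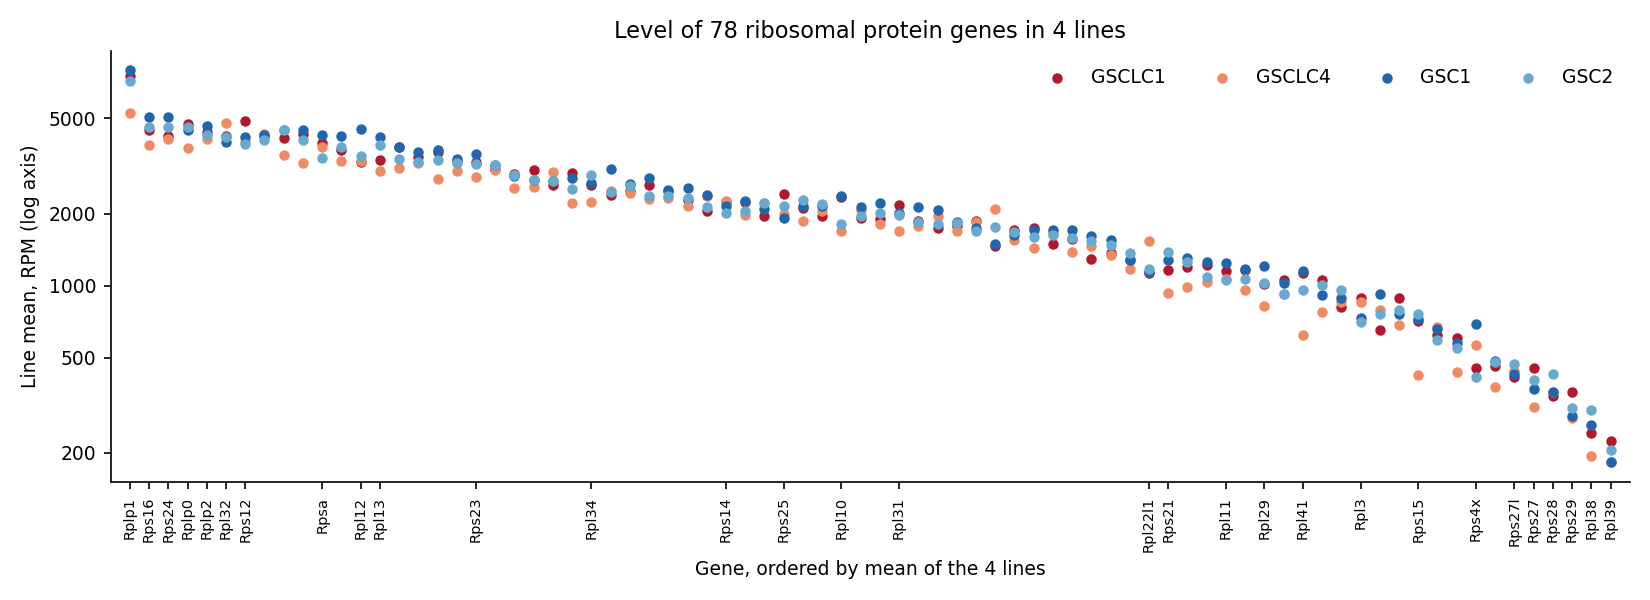
Line mean RPM (log axis) of 78 of the 81 genes, ordered by the mean of the 4 lines, with 1 point for each of GSCLC1, GSCLC4, GSC1 and GSC2. Levels spanned a 35.2-fold range, while the 4 lines lay close together for most genes, with GSCLC4 below the others for Rpl41 and Rps15. Some of the genes named in the text are labelled.

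Among other large subunit genes, Rpl32 had a mean of 4292 RPM over the 4 lines. Small subunit genes with similar means were Rps16 (4505 RPM), Rps24 (4500 RPM) and Rps12 (4241 RPM). These genes and the stalk genes Rplp0 and Rplp2 had line means between 3772 and 5085 RPM and their ranges over the lines overlapped. The lowest genes were Rpl39 with 198 RPM, Rpl38, a large subunit protein known for its part in the translation of Hox mRNAs in mouse embryos, with 250 RPM, and Rps29, Rps28, Rps27 and Rps27l with 309, 373, 384 and 439 RPM.

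The 81 genes together took up a large share of the gene RPM of every cell. It averaged 18.1% ± 2.41 in GSCLC1 and 16.4% ± 3.38 in GSCLC4, against 19.1% ± 2.74 in GSC1 and 17.9% ± 3.00 in GSC2 (SD over 30, 24, 30 and 24 cells). Single cells spanned 13.7% to 22.7% (median 18.1%) in GSCLC1 and 11.8% to 25.3% (15.5%) in GSCLC4. In GSC1 they spanned 13.8% to 24.4% (19.5%) and in GSC2 11.9% to 25.0% (17.4%). GSCLC4 was the lowest line and GSC1 the highest, while GSCLC1 lay above GSC2, so that the types overlapped.

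The line means averaged 17.3% ± 1.21 in GSCLCs and 18.5% ± 0.84 in GSCs (SD, n = 2 lines each), a difference of -1.20 percentage points (two-sided exact permutation test over lines, p = 0.667, where the smallest p that 2 lines against 2 can give is 0.333). It was -0.34 without GSCLC4, -0.60 without GSC1 and -2.05 without GSCLC1. The GSC1 cells form 2 runs by the serial numbers of their titles, with shares of 18.2% (13 cells) and 19.7% (17 cells). The cell that stood apart had a share of 22.1%, and without it GSC1 averaged 18.9%. Large over small subunit RPM was 1.39 and 1.42 in GSCLC1 and GSCLC4 and 1.41 and 1.43 in GSC1 and GSC2 (exact permutation p = 0.667). Relative to the RPM of the spike-in RNAs added to each cell, the summed genes had line medians of 4.199 and 4.55 in the GSCLC lines and 4.54 and 5.11 in the GSC lines (exact permutation p = 0.667).

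**Figure D2:**
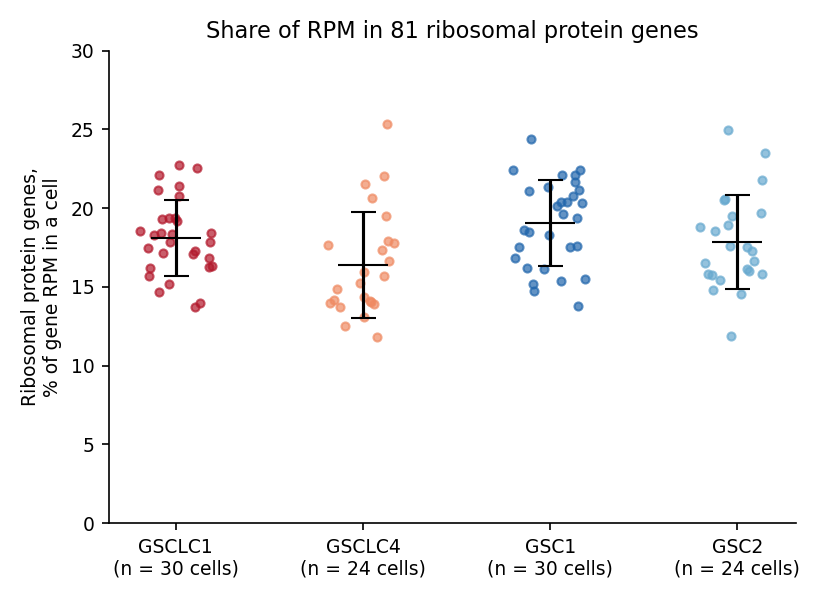
Percent of gene RPM in the 81 ribosomal protein genes, 1 point per cell, with the mean and SD over the cells of each line. Line means were 18.1% and 16.4% in GSCLC1 and GSCLC4 and 19.1% and 17.9% in GSC1 and GSC2, and the cells of the 4 lines overlapped.

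Gene by gene, GSCLC lines were compared with GSC lines over their mean RPM. No ribosomal protein gene passed the threshold, against 0.0766% of the 10445 other tested genes (8 genes, limma with a Benjamini-Hochberg adjusted p under 0.05). At an unadjusted p under 0.05, 2 of the 81 genes (2.47%) passed, against 8.88% of the other tested genes. The log2 fold changes were small, from -0.44 to 0.28 with a median of -0.08, and 64 of 81 were below 0, against 46.2% of all tested genes, whose median was 0.04. Both GSCLC lines lay below both GSC lines for 26 genes (32.1%), against 17.2% of the other tested genes, and above them for 4 genes (4.94%), against 22.1%. The 4 genes above were Rpl3, Rpl30, Rpl32 and Rps14. Large and small subunit genes had similar medians, -0.09 over 49 genes and -0.07 over 32. The 81 genes share libraries and a common scaling to the library total, so these counts do not stand for independent observations. The median over the set was -0.04 without GSCLC4 and -0.16 without GSCLC1, and 45 and 66 of 81 fold changes were then below 0.

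**Figure D3:**
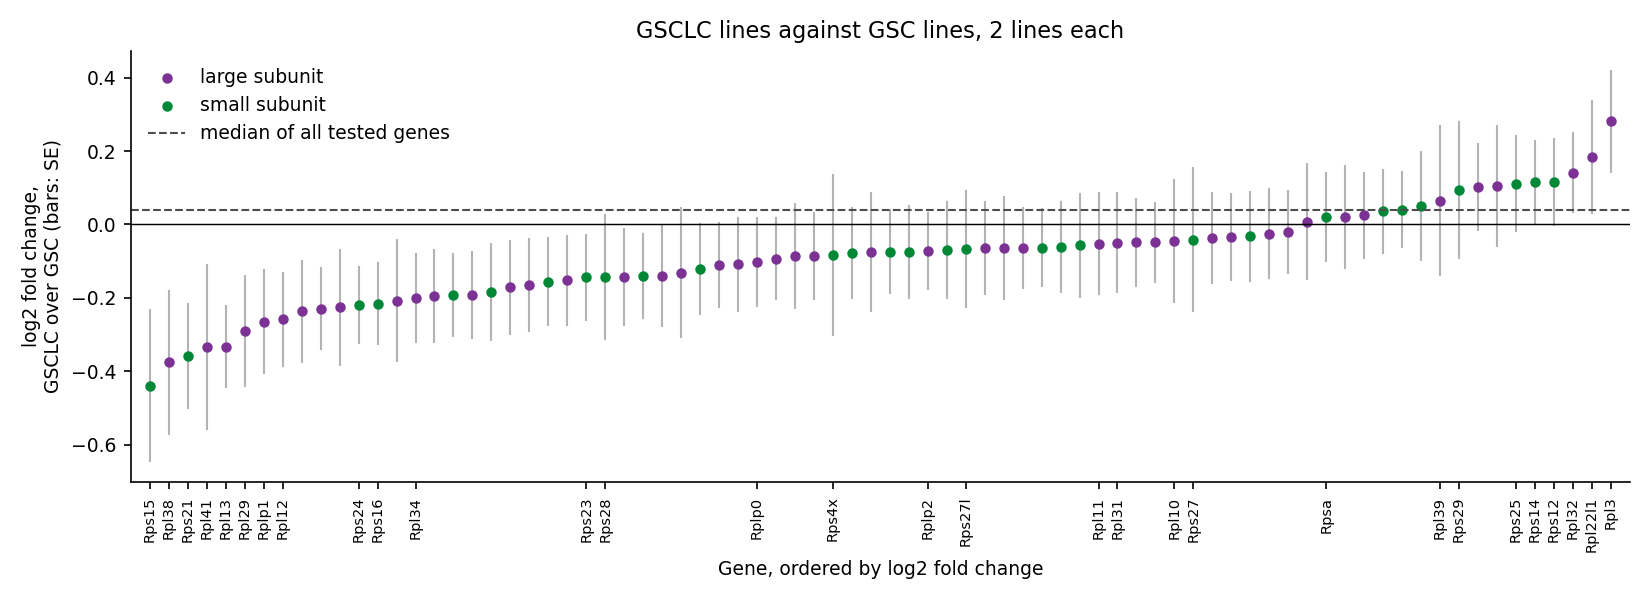
Log2 fold change of GSCLC lines over GSC lines with its SE for 78 of the 81 genes, ordered by size and coloured by subunit, with the median of all 10526 tested genes as a dashed line. Some of the genes named in the text are labelled, values ran from -0.44 for Rps15 to 0.28 for Rpl3, and most were below 0.

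The 2 genes with an unadjusted p under 0.05 were Rpl13 and Rps21. Rpl13 (chromosome 8, 123102350 to 123105244) had 3362 and 3026 RPM in GSCLC1 and GSCLC4 and 4186 and 3855 RPM in GSC1 and GSC2. The lines of the types did not overlap (log2 -0.33 ± 0.11 SE, limma unadjusted p = 0.0116, adjusted p = 0.457). Rps21 (chromosome 2, 180257379 to 180258444) had 1159 and 928 RPM in the GSCLC lines and 1282 and 1380 RPM in the GSC lines (log2 -0.36 ± 0.15 SE, limma unadjusted p = 0.0292, adjusted p = 0.524). These lines did not overlap either. Of the Rpl13 values, 63.9% were not a whole number of reads, a measure described further on, against 3.70% of the Rps21 values.

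The largest fold change was that of Rps15, a protein near the decoding site of the small subunit, with 709 and 423 RPM in GSCLC1 and GSCLC4 and 723 and 762 RPM in GSC1 and GSC2. Its log2 fold change of -0.44 ± 0.21 (limma adjusted p = 0.579) went with a low value in GSCLC4, while GSCLC1 lay close to the GSC lines. Rpl38 had 241 and 194 RPM in the GSCLC lines and 261 and 303 RPM in the GSC lines (log2 -0.38, adjusted p = 0.623). Rpl41, one of the smallest proteins known, had 1129 and 619 RPM in the GSCLC lines and 1155 and 963 RPM in the GSC lines (log2 -0.33, adjusted p = 0.721). GSCLC4 was the only low line for Rpl41, and without it the log2 fold change was 0.10. Without GSCLC1, 1 of the 81 genes passed the threshold (limma), against 0.139% of the 10043 other genes then tested, where the single GSCLC line is assumed to vary as the GSC lines do. The gene with the largest positive fold change was Rpl3, a protein at the catalytic centre, with 889 and 856 RPM in GSCLC1 and GSCLC4 and 730 and 706 RPM in GSC1 and GSC2 (log2 0.28 ± 0.14, adjusted p = 0.598). Rpl22l1, Rpl32, Rps12, Rps14 and Rps25 followed at 0.18, 0.14, 0.11, 0.11 and 0.11 on the log2 scale, with an adjusted p of 0.768 to 0.869. Of these Rpl22l1 turned to -0.04 without GSCLC4, Rps12 and Rps25 to -0.03 and -0.02 without GSCLC1, and Rps14 and Rps25 to -0.04 and -0.0023 when scaled to the spike-ins.

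Lines of 1 type also differed from each other. This is a comparison of 1 line with another and has no test. Between the GSCLC lines, 6 genes differed by at least 0.5 on the log2 scale, 5 of them higher in GSCLC1. Rpl41 had 1129 RPM in GSCLC1 (cells 640 to 1791, median 1065) and 619 RPM in GSCLC4 (372 to 980, median 574), a log2 ratio of 0.87. The ratios of Rps15, Rps27 and Rplp1 were 0.74, 0.53 and 0.52, and that of Rpl4 was -0.51.

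Between the GSC lines, Rps4x alone differed by 0.5 or more. Rps4x, the X-linked gene of the protein S4, had 689 RPM in GSC1 (cells 8.015 to 2673, median 482) and 416 RPM in GSC2 (4.65 to 970, median 340), a log2 ratio of 0.73. The highest value, 2673 RPM, was that of the cell that stood apart, and without it the ratio was 0.58. Rpl10, also X-linked, and Rpl12 and Rpsa had ratios of 0.39, 0.37 and 0.32, and of 0.31, 0.37 and 0.31 without that cell. The GSCLC lines had 452 and 565 RPM of Rps4x.

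The paralogues made up a large part of each pair in every line. The share of Rpl39l in the RPM of Rpl39l and Rpl39 was 74.5% and 81.2% in GSCLC1 and GSCLC4 and 83.5% and 78.8% in GSC1 and GSC2, so the germ cell paralogue was the main one in all 4 lines. Rpl39l itself had 654 and 790 RPM in the GSCLC lines and 926 and 762 RPM in the GSC lines, while Rpl39 had 223 and 182.8 RPM in the GSCLC lines and 182.4 and 205 RPM in the GSC lines. Without the cell that stood apart GSC1 had 958 RPM of Rpl39l, 84.6% of the pair. In single cells Rpl39l ranged from 0.61 to 1484 RPM in GSCLC1 (median 625), from 98.6 to 1576 in GSCLC4 (715), from 0.99 to 3072 in GSC1 (791) and from 98.5 to 1586 in GSC2 (766). It exceeded Rpl39 in 27 of 30 GSCLC1 cells, 23 of 24 GSCLC4 cells, 29 of 30 GSC1 cells and 22 of 24 GSC2 cells. Of their values, 0.926% and 9.26% were not a whole number of reads.

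In 3 cells Rpl39l was under 50 RPM, a cut set after the values were seen. The GSC1 cell that stood apart had 0.99 RPM of Rpl39l and 421 RPM of Rpl39. The others were 2 GSCLC1 cells with 0.61 and 3.24 RPM of Rpl39l, 212 and 186.2 RPM of Rpl39 and 4062 and 3899 RPM of the germ cell markers, whose median over all cells was 5064 RPM. Their fibroblast and feeder markers summed to 205 and 839 RPM, against 54652 RPM in the GSC1 cell. All 3 cells thus had little Rpl39l, while the germ cell markers of the GSCLC1 cells were of the order of the median and those of the GSC1 cell were far under it. The 2 GSCLC1 cells had 7535 and 7901 detected genes, against a line median of 8607. Their spike-in RNAs stood at 77134.5 and 63445 RPM, against a line median of 42621.7 RPM. Whether their low Rpl39l went with little captured RNA was not tested.

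For the other pairs the paralogue held a smaller part. Rps27l made up 48.01% and 58.5% of its pair in GSCLC1 and GSCLC4 and 53.6% and 53.9% in GSC1 and GSC2, with cells from 0.75% to 90.3%. Rpl22l1 made up 46.9% and 56.6% in the GSCLC lines and 47.2% and 46.1% in the GSC lines, with cells from 14.02% to 86.2%. Rpl36al made up 34.2% and 35.6% in the GSCLC lines (34.9% ± 0.97, SD, n = 2), against 38.4% ± 0.88 in the GSC lines, with cells from 10.8% to 63.9%. GSCLC4 was high for Rps27l and Rpl22l1, and Rpl36al was the single pair in which the types did not overlap.

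The differences between the types in percentage points were -3.33 for Rpl39l, -0.46 for Rps27l, 5.07 for Rpl22l1 and -3.46 for Rpl36al. In two-sided exact permutation tests over the lines p was 0.667, 1.0, 0.667 and 0.333, and after Benjamini-Hochberg adjustment over the 4 pairs 0.889, 1.0, 0.889 and 0.889. With 2 lines against 2 none could have passed, so the tests do not show that the shares are alike. For Rpl22l1 the difference was 0.21 without GSCLC4 and 9.93 without GSCLC1, for Rpl39l 0.0092 without GSCLC1, -6.66 without GSCLC4, -0.97 without GSC1 and -5.68 without GSC2, and for Rps27l -5.73 without GSCLC4, 4.80 without GSCLC1 and 0.42 without the cell that stood apart. For Rpl36al it was -0.53 with the GSC1 cells of serial number under 129 alone and -5.81 with those of 129 and over.

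**Figure D4:**
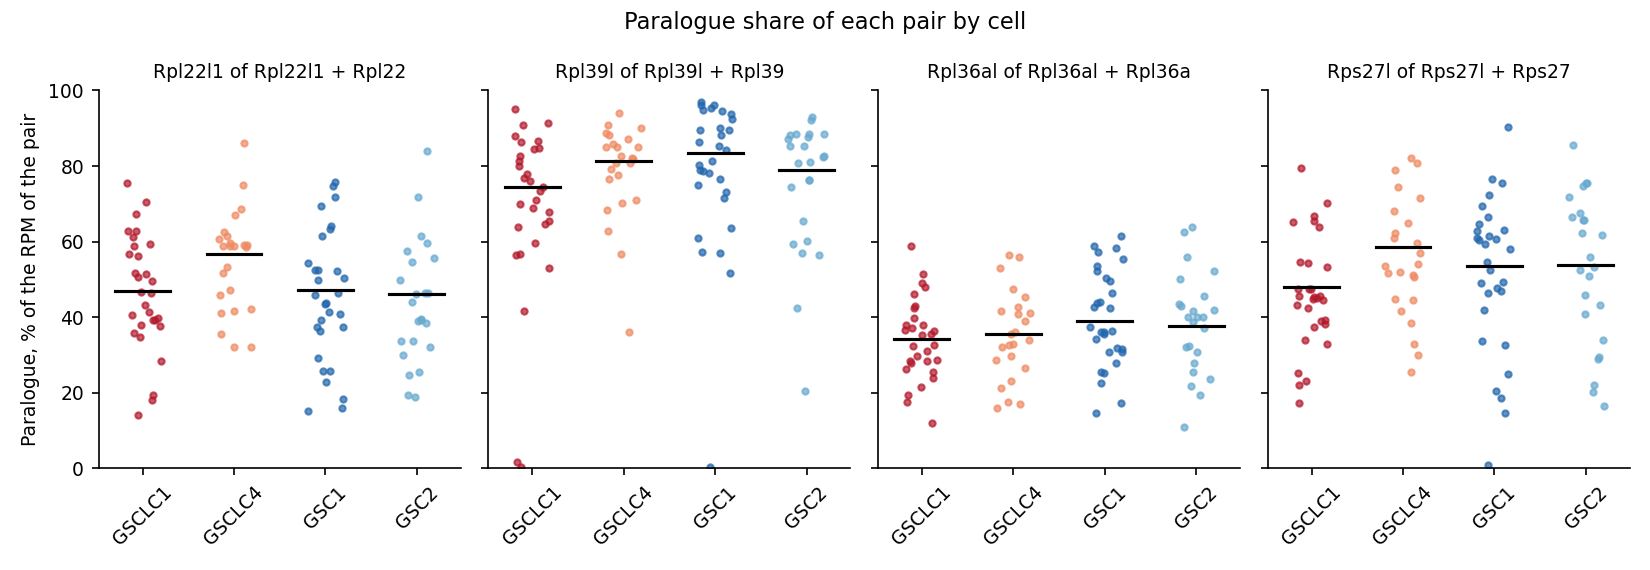
Paralogue RPM as percent of the RPM of its pair, 1 point per cell, for GSCLC1, GSCLC4, GSC1 and GSC2, with bars at the value from the line means. Rpl39l made up 74.5% to 83.5% of its pair by line, and 3 cells, 2 of GSCLC1 and 1 of GSC1, lay near 0.

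From cell to cell within a line most ribosomal protein genes had similar variation, and 3 of the paralogues, Rpl39 and Rps4x had more. The median coefficient of variation (CV, SD over mean of RPM) was 25.9% and 31.4% in GSCLC1 and GSCLC4 and 28.8% and 26.9% in GSC1 and GSC2. The 729 other genes whose mean was at least 182.4 RPM in every line, the lowest line mean of the set, had medians of 51.6%, 44.8%, 55.8% and 47.5%. Their median level was 332 RPM, against 2055 RPM for the set, and the difference shrank at matched level. At 1000 RPM or more, a cut set after the values were seen, the median CV was 26.7% over 63 ribosomal protein genes and 29.1% over 41 other genes. Of the 729, 43 had a CV under the median of the ribosomal protein genes, 27.5%. Within the set CVs, taken as the median of the 4 lines, ran from 20.6% for Rps3a to 87.8% for Rps4x. Rps27l followed with 63.7%, Rpl22l1 with 58.8%, Rpl39l with 57.3%, Rpl39 with 52.6% and Rps9 with 46.1%. Of these the first 5 exceeded 50.7%, the median of the other genes. Rpl22l1 reached this at a mean of 1244 RPM, close to its pair partner Rpl22 at 1277 RPM, whose CV was 35.7%. Without the cell that stood apart the CV of Rps4x in GSC1 was 83.2%, against 91.5% with it.

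**Figure D5:**
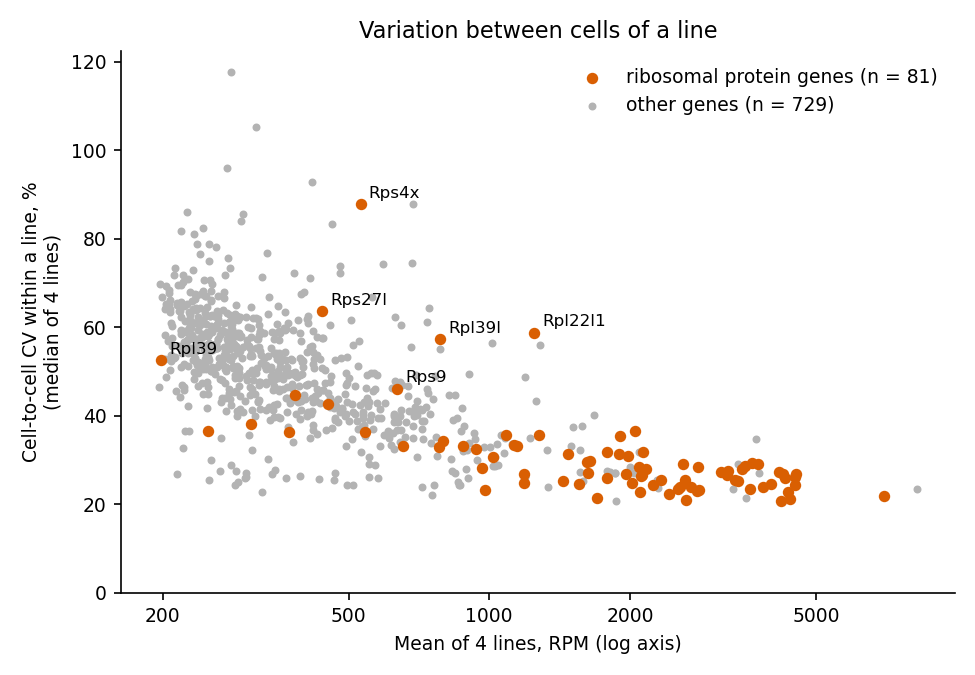
Cell-to-cell CV within a line (median of the 4 lines) against the mean of the 4 lines in RPM (log axis) for the 81 ribosomal protein genes and 729 other genes. Rps4x lay at 87.8%, and Rps27l, Rpl22l1, Rpl39l and Rpl39 also lay above 50.7%, while at 1000 RPM or more both sets overlapped.

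Most genes of the set varied together across the cells of a line. The correlation (log2 RPM) of a gene with the summed RPM of the other 80 genes had a median of 0.48 and 0.64 in GSCLC1 and GSCLC4 and 0.47 and 0.62 in GSC1 and GSC2, over 30, 24, 30 and 24 cells. For the 729 other genes the medians against the summed set were -0.03, -0.12, -0.13 and -0.10. The values of a cell share its library, its depth and the scaling to the library total, so these are descriptions and not tests. Among the highest medians over the lines were those of Rpl34 (0.76) and Rps24 (0.73). The lowest were those of the paralogues Rpl39l (-0.14), Rps27l (-0.11) and Rpl22l1 (0.03). Between the members of a pair the correlation within lines lay between -0.34 and 0.27.

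Many ribosomal protein genes have processed pseudogenes, copies of the mRNA inserted elsewhere in the genome, and a read that matches several copies can be counted in part at each. How such reads were counted is not stated, but values that are not a whole number of reads, beyond a tolerance of 0.05 read, were counted. Of 8743 ribosomal protein values that could be judged, 49.1% were not whole, against 9.84% of all values in the table. Of the values that were not whole, 40.1% lay at 0.5 of a read and 74.6% at a multiple of 1/6 of a read, within 0.025 read. Some values would lie there also with evenly spread fractions, and that share was not computed. The share of values not whole was over 50% for 40 of the 81 genes and under 10% for 17. It was highest for Rpl31 (93.5%), Rpl34, Rpl29, Rps12 and Rps23 (91.7% each) and Rpl11, Rpl15 and Rps2 (90.7% each), and 0.926% for Rpl8, Rps9, Rps29, Rps4x, Rpl36al and Rpl39l. The share counts values, not reads, and a single fractional read makes a value not whole. Levels of the 64 genes at 10% or more are uncertain for this reason. A low share does not make a level certain. Rps9, at 0.926%, was followed by another row at 76.3% of its level, described below.

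No row had the values of a ribosomal protein gene in every cell, nor in 50% of the cells where both were detected. Outside the set, 42 rows followed one of 26 genes with a correlation of at least 0.9 over all cells (log2 RPM), while 2 genes of the set reached at most 0.67 with each other (median 0.27). The rows of a cell share its library and depth. Rps27a-ps3 (row Gm8430) followed Rps27a with r = 0.99 at 26.9% of its level, Rpl31-ps12 (Gm7689) followed Rpl31 with r = 0.99 at 14.6%, and the retrogene Rps27rt (Gm9846) followed Rps27 with r = 0.99 at 20.9%. Rps12 had 9 such rows, and held 88.3% and 87.1% of the RPM of itself and those rows in GSCLC1 and GSCLC4 and 88.5% and 87.7% in GSC1 and GSC2. Among the 42 rows, 7 pairs had identical values in at least 50% of the cells.

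In 4 rows the level was at least 50% of that of the gene they followed. These were LOC100861805 for Rps9 (76.3%), Rpl15-ps6 (Gm10020) for Rpl15 (73.2%), Gm13654 for Rps6 (63.5%) and Gm19899 for Rpl39 (58.7%). Of the 42 rows, 8 had Entrez identifiers with no match in the annotation, LOC100861805, Gm13654 and Gm19899 among them. The row that followed Rpl39 had 134 and 94.5 RPM in GSCLC1 and GSCLC4 and 119.9 and 118.1 RPM in GSC1 and GSC2, and the share of Rpl39l given above was computed from the row Rpl39 alone. Rpl13 was followed by LOC100861897 (r = 0.90, 37.1% of its level), with 1342 and 931 RPM in the GSCLC lines and 1748 and 1326 RPM in the GSC lines, which overlapped. The 42 rows together held 1.44% and 1.25% of gene RPM in the GSCLC lines and 1.53% and 1.43% in the GSC lines.

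Other genes of the translation apparatus, in lists taken by their known function, did not pass the threshold either. In the limma fit over all 10526 genes, 0 genes were called in each of the 4 lists. Of the tested genes outside the ribosomal protein set 0.0766% were called, so lists this short could hold no call at that share. For the counts that follow, 53.8% of all tested genes had a log2 fold change above 0, with a median of 0.04, and 8.88% of the genes outside the ribosomal protein set had an unadjusted p under 0.05. The translation factors and other TOP mRNAs had a log2 fold change above 0 for 9 of 24 genes (median -0.07), with 0 at an unadjusted p under 0.05. The largest fold changes of the list were those of Snhg8, a snoRNA host gene, at -0.64, and Btf3, a part of the nascent chain complex, at 0.32 (limma adjusted p = 0.845 and 0.660). Snhg8 lay near the filter of 5 RPM, with an SE of 0.67. It had 4.95 and 6.39 RPM in the GSCLC lines and 7.18 and 12.1 RPM in GSC1 and GSC2.

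Of 40 ribosome biogenesis factors 26 had a log2 fold change above 0, against 53.8% of all tested genes, with a median of 0.13. Among the 40, 3 had an unadjusted p under 0.05, no larger a share than the 8.88% of other genes. Rrp12, an export factor of pre-ribosomes, had 114.3 and 101.3 RPM in the GSCLC lines and 61.1 and 71.5 RPM in the GSC lines (log2 0.70, limma adjusted p = 0.496). Nucleolin (Ncl) had 154 and 164.6 RPM in the GSCLC lines and 116.04 and 106.6 RPM in the GSC lines (log2 0.51, adjusted p = 0.547), and fibrillarin (Fbl), the methyltransferase of rRNA, had 486 and 392 RPM in the GSCLC lines and 325 and 336 RPM in the GSC lines (log2 0.40, adjusted p = 0.550). The largest fold change of the list was that of Sbds, which releases Eif6 from the large subunit, at 0.88 ± 0.53 SE (limma adjusted p = 0.675). Its levels were low, at 17.95 and 18.3 RPM in the GSCLC lines and 11.04 and 7.98 RPM in the GSC lines.

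Of 14 mTOR and TOP regulators 5 had a log2 fold change above 0 (median -0.12), against 53.8% of all tested genes. Rptor, the scaffold of mTOR complex 1, had 40.9 and 39.9 RPM in the GSCLC lines and 28.7 and 11.98 RPM in the GSC lines. Its log2 fold change was 1.08 (limma adjusted p = 0.547). Tsc1, an inhibitor of the pathway, stood at -0.65 ± 0.50 SE on the log2 scale (limma adjusted p = 0.764). Tsc1 levels were low, at 11.04 and 12.04 RPM in the GSCLC lines and 19.4 and 18.1 RPM in the GSC lines. Tsc2, its partner, had 95.1 and 76.3 RPM in the GSCLC lines and 117.7 and 134.9 RPM in the GSC lines (log2 -0.56, adjusted p = 0.557), and was, with Rptor, one of 2 of the 14 genes at an unadjusted p under 0.05, where 8.88% of other genes passed. Of the 5 tested ribosomal protein genes outside the rule 1 was positive (median -0.15). Fau stood at -0.22 on the log2 scale (adjusted p = 0.724). Rpl10l, an autosomal copy of Rpl10 known from male germ cells, had 171.7 and 257 RPM in GSCLC1 and GSCLC4 and 199 and 182.3 RPM in GSC1 and GSC2 (log2 0.14, adjusted p = 0.919), against 1699 to 2362 RPM of Rpl10.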

How the data were processed

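Single cells were profiled by SC3-seq, which reads the 3′ ends of polyadenylated RNA. The authors deposited 1 table of expression signal as RPM, reads scaled to the library total, for 26218 genes and 92 spike-in RNAs. The submitters' processing notes name the build mm10, TopHat 1.4.1, cutadapt 1.3 and Cufflinks 2.2.0. No source says how reads with several matches were handled. In the deposited signal 6440 empty spike-in entries were read as 0.

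The worth of 1 read in a cell was the most frequent value above 0, refined by least squares, and gave the estimated depth. Not all values were whole reads, so no count model was fitted. Line values were mean RPM over cells. Genes with at least 5 RPM in at least 2 of 4 lines were tested with limma 3.58.1 in R 4.3.3 (variance trend) on log2(mean RPM + 1), a scale that understates changes of low genes, with Benjamini-Hochberg adjustment over 10526 genes and a threshold of 0.05. All 81 ribosomal protein genes passed the filter. Shares and paralogue percents were compared by exact permutation over the lines. The labels separate cultures only by line name and by the origins given for GSCLC4 and GSC2, so p-values measure only the spread between these lines. Named were the genes with the largest changes, highest and lowest levels, largest line ratios and most values that are not whole reads, the stalk proteins, the paralogues and the 2 largest changes of each list. Positions are from RefSeq (GRCm38.p6, all 81 matched by Entrez identifier) and coding sequences from GENCODE M21. The genes, lists and rules were chosen with earlier results of these data known. Some genes that the rule for named genes picks are not reported here.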

Additional observations from a re-analysis of the deposited data

How the results depend on the processing

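The median log2 fold change of the 81 genes was negative under every alternative tried, between -0.18 (scaled to spike-ins) and -0.04 (without GSCLC4), and between 45 and 74 of 81 genes were below 0. Other line summaries put the median of all genes, 0.04 as reported, at 0.19 for the mean of log2(RPM + 1) and 0.11 for the line median, and relative to it the 81 genes were at -0.27 and -0.22. Called genes numbered 0 in all alternatives except without GSCLC1, where it was 1. Leaving out 1 line gave 0 to 1 called genes, a share difference of -2.05 to -0.34 percentage points, and paralogue differences of 0.21 to 9.93 (Rpl22l1), -6.66 to 0.0092 (Rpl39l), -4.15 to -2.77 (Rpl36al) and -5.73 to 4.80 (Rps27l). The Rps27l difference was 0.42 without the cell of few detected genes and 3.50 with the GSC1 cells of serial number under 129 alone. Scaled to spike-ins, the log2 fold changes of Rps14 and Rps25 were -0.037 and -0.0023. That of Rps27l was 0.024 for the mean of log2 values and 0.048 with the GSC1 cells under 129. Leaving out 1 line gave log2 fold changes of -0.037 to 0.407 for Rpl22l1, -0.033 to 0.262 for Rps12, -0.024 to 0.247 for Rps25, -0.767 to 0.099 for Rpl41 and -0.136 to 0.0028 for Rps27l. The cause of these changes was not tested. The share difference was -1.21 with 28 pseudogene rows, a setting chosen after seeing the data. Over only the 17 genes with at most 10% of values not whole it was -0.14. Those genes hold only a part of the RPM of the 81, so this value cannot be compared in size with the others. No paired analysis was possible because the serial numbers of the titles are not shared between lines. A denominator without mitochondrially encoded genes gave no value, as the table names none by that prefix. With 2 lines per type the exact tests could not pass, and none was run with a line left out.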
